A study of Mus musculus with 3 samples.

Results

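Small nucleolar RNAs (snoRNAs) were examined on 3 microarrays of mouse thymocytes at the CD4+ CD8+ double-positive (DP) stage. Members were defined from the gene symbols of the array's annotation: every gene whose symbol, alone on at least 1 probe set, starts with Snora (H/ACA class, 20 genes) or Snord (C/D class, 31 genes), 51 of 19938 genes in all. The grouping itself was selected on measured values, because these genes had been seen to read higher on the array titled DP_1 than on DP_2 and DP_3. That difference is therefore described here and not tested. Where a gene had more than 1 probe set, the brightest by 3-array mean was taken. A further 41 probe sets list a snoRNA together with another gene and were not used.

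All 3 samples belong to a single group: wild-type C57BL/6 mice aged 5 to 6 weeks, with no treatment, mutation or second condition named. Each array holds total RNA of a different cohort of littermates, with the number of mice per cohort not stated in the labels, after bead sorting for CD8 and then CD4. RNA was extracted with TRIzol by a procedure modified to keep more small RNA. The protocol text also describes formaldehyde fixation before the sort, and whether this was done for the RNA is not stated. Values are log2 expression values, given throughout in the order DP_1, DP_2 and DP_3, so a difference of 1 log2 doubles the linear signal. With 1 array per cohort, a departure of DP_1 has no replicate, and the only available yardstick is the difference between DP_2 and DP_3.

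SnoRNAs are short RNAs of the nucleolus that direct the chemical modification of ribosomal RNA. C/D snoRNAs carry the C and D sequence boxes and guide methylation of the ribose, which the protein fibrillarin catalyses. H/ACA snoRNAs guide the conversion of uridine to pseudouridine by dyskerin. A few members of either class do not guide modification but are needed to cut the ribosomal RNA precursor. In mammals nearly all snoRNAs lie in introns of other genes, ribosomal protein genes and non-coding host genes such as Gas5 among them, and are trimmed out of the intron after splicing. The host transcripts commonly begin with a run of pyrimidines, the terminal oligopyrimidine (TOP) tract, through which growth signals control translation.

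By position in the RefSeq gene table of GRCm38.p6, 47 of the 51 snoRNA genes lay inside exactly 1 other gene, 3 inside 2 genes, and Snord118 inside none. Of the 47, 37 lay in a protein-coding gene (21 of these in a ribosomal protein gene) and 10 in a long non-coding RNA gene. The table gives no strand, so orientation was not checked. The start regions of non-coding hosts are shown because these include the hosts of Snora44 and Snord47, the members with the largest differences between arrays. All non-coding containing genes with an entry in the start-region table are printed except 1110038B12Rik, whose snoRNA, Snord52, was below background on every array. Snhg12 holds Snora44 and Snora16a, Gas5 holds Snord47, Gm36220 holds Snord104, 2410006H16Rik holds Snord49a and Snord49b, Snhg1 holds Snord22, and Snhg3 holds Snora73a and Snora73b. Each sequence is from RefSeq (GRCm38.p6), runs 5′ to 3′ on the gene's strand from 40 bases before the annotated start to 40 after it, and has in capitals the run of C and T nearest to the start, which Snhg3 lacks. Gas5 has a second annotated start, upstream, with no such run.
Snhg12 (chr4:132308638-132308717, plus strand): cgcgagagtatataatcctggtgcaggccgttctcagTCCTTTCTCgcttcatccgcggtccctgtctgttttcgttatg
Gas5 (chr1:161035126-161035205, plus strand): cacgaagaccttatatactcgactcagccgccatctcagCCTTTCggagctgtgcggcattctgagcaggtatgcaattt
Gm36220 (chr11:106500875-106500954, plus strand): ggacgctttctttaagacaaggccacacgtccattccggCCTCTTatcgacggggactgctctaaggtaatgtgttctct
2410006H16Rik (chr11:62602837-62602916, plus strand): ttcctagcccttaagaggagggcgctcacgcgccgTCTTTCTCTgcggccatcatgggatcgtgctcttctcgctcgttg
Snhg1 (chr19:8723447-8723526, plus strand): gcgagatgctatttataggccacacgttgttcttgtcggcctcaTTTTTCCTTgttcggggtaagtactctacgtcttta
Snhg3 (chr4:132353647-132353726, minus strand): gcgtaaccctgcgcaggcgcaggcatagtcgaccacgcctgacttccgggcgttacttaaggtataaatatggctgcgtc

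The run searched for was 6 or more bases, each C or T, reaching within 5 bases of an annotated start, on the transcribed strand. It was found for 14 of the 31 containing genes that have an entry in the start-region table (45.2%), against 24% of the 27025 genes in that table. Both members with the largest DP_1 difference, Snora44 and Snord47, lie in genes with such a run, and so does Snord22, with nearly equal values on the 3 arrays. It was not found at Snhg3, whose members differed by 0.55 and 0.535 log2. Nor was it found at Eef1b2, Eef2, Rps3, Rps3a1 and Tpt1, where each gene holds a member with a difference between 0.65 and 0.885. The 0.885 is that of Snora41, in Eef1b2, which was below background on every array. Hosts with and without a run thus held members with large differences. A match describes these letters and not the use of the start. A miss likewise does not show that a transcript lacks a TOP tract. The search saw only annotated starts and runs of 6 or more bases.

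In these cells most snoRNA genes gave a signal. The background limit of each array, 95th percentile of its values for genes listed as specific to other organs, was 7.351, 7.440 and 7.385 on DP_1, DP_2 and DP_3. Above it on all 3 arrays were 17 of 20 H/ACA genes and 26 of 31 C/D genes, 43 of 51 together, against 41.3% of all genes. The other 8 are accounted for by name. Snora2b, Snora41, Snord38a, Snord52 and Snord58b were below the limit on every array, Snora20 was above it on DP_1 alone, and Snord87 and Snord96a were above it on 2 arrays. The limit comes from long messenger RNAs, and a snoRNA probe set has a short target, so a value below it does not show that the snoRNA is absent. The probe sets also do not tell a mature snoRNA from the unspliced host RNA that contains it, and which of these gave the signal was not tested.

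The order of the classes by level depended on the dim members. The median of the 3-array means was 8.525 for H/ACA genes and 8.89 for C/D genes, against 6.85 for all genes. The H/ACA minus C/D difference of -0.365 became 0.10, with the opposite sign, when members with a mean below the limit were left out. Probe affinity differs between genes, so an order of signals among snoRNA genes is not an order of RNA amounts.

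The members with the strongest probe signals are given by class. Among H/ACA genes Snora52, inside the ribosomal protein gene Rplp2, had 12.29, 12.01 and 11.99 on DP_1, DP_2 and DP_3. Snora16a had 11.19, 10.60 and 10.80, and Snora23 had 10.44, 10.23 and 10.47. Among C/D genes Snord57, which guides methylation in 18S ribosomal RNA and lies in Nop56, had 12.03, 12.18 and 12.22. Snord33 had 11.70, 11.69 and 11.60, Snord15b had 12.05, 11.19 and 11.29, and Snord22 had 11.07, 10.92 and 11.15. Of these 7 genes, Snord15b and Snora16a stood clearly higher on DP_1 and Snora52 slightly so, whereas Snord22, Snora23 and Snord33 differed little and Snord57 was lowest on DP_1.

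**Figure D1:**
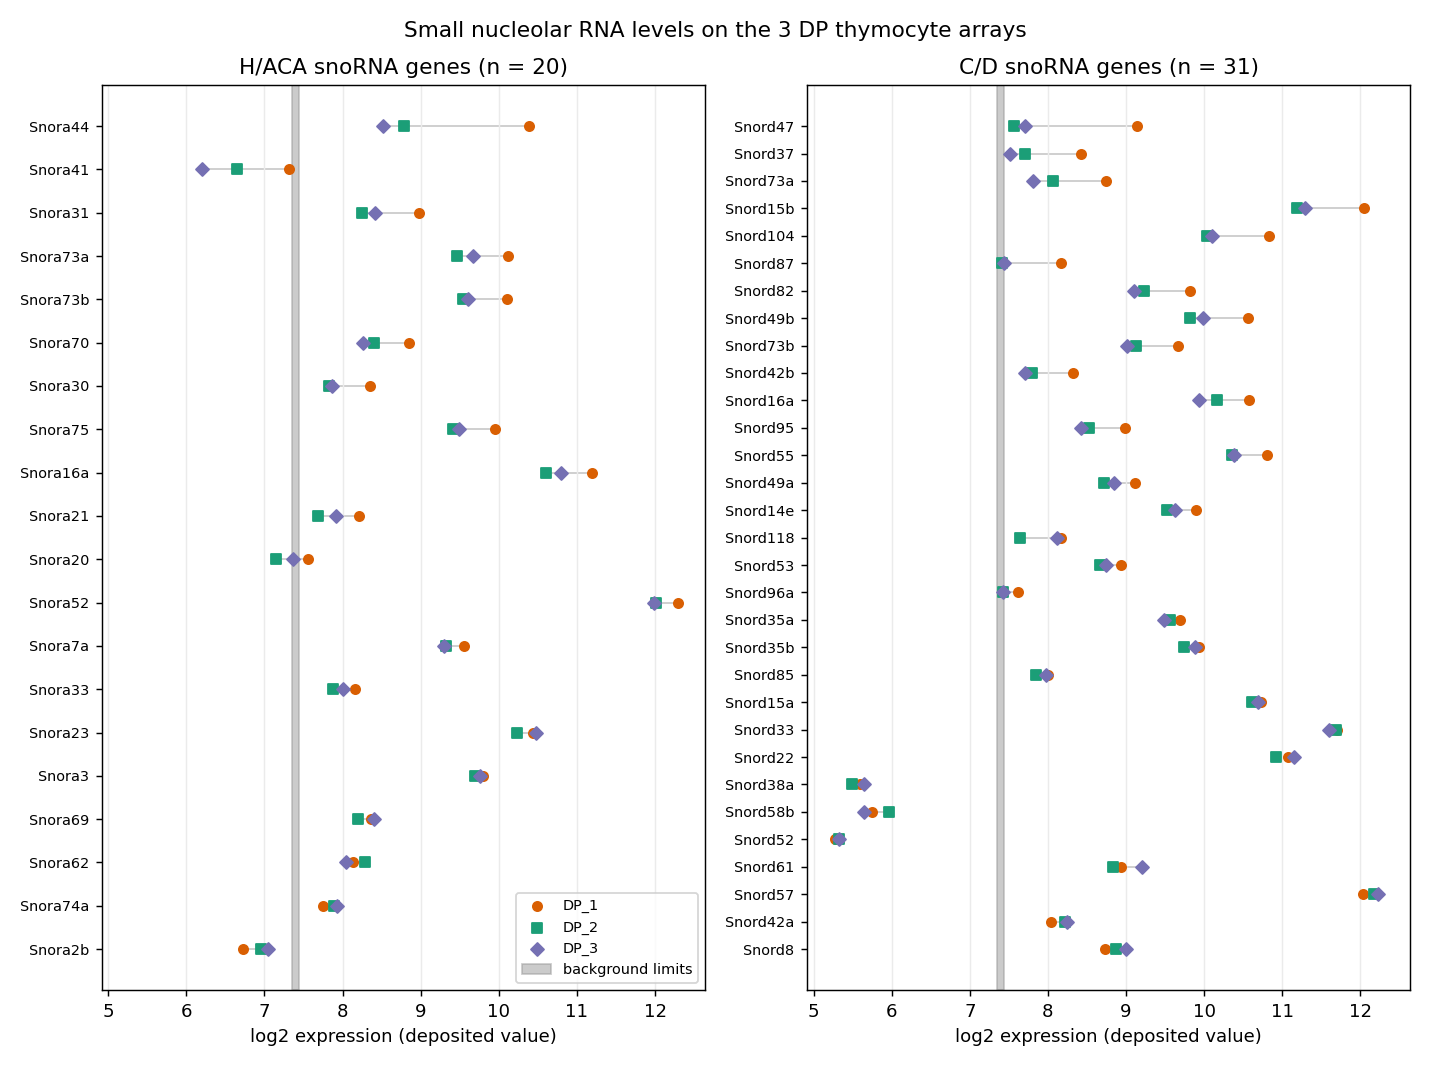
Deposited log2 expression (horizontal axis) of each snoRNA gene on DP_1 (circles), DP_2 (squares) and DP_3 (diamonds), H/ACA genes on the left and C/D genes on the right, ordered by the DP_1 difference. The grey band spans the 3 background limits, 7.351 to 7.440, and the circles lie to the right of both other symbols for 38 of 51 genes.

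The members were chosen by their reading on DP_1, and the size and spread of that reading were as follows. DP_1 gave the highest of the 3 values for 38 of 51 members, 15 of 20 H/ACA and 23 of 31 C/D, where 34.5% of all genes were highest on DP_1. The difference between DP_1 and the mean of DP_2 and DP_3 had a median of 0.305 log2 over the 51 members and of -0.015 over all genes. It exceeded 0.5 log2 for 19 members, 7 H/ACA and 12 C/D, against 2.28% of all genes, and 1 log2 for 2 members, against 0.236%. No member was lower on DP_1 by more than 0.5 log2, as 1.31% of all genes were. For 31 members DP_1 exceeded the higher of the other arrays by more than these arrays differed from each other, against 20.6% of all genes. These counts describe how the group was picked and are no independent support for it.

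Both classes had the difference. The median difference was 0.36 log2 in H/ACA genes (lower and upper quartiles 0.09 and 0.52) and 0.29 in C/D genes (quartiles 0.045 and 0.63), so the H/ACA quartiles lay inside those of C/D. Without array DP_2 the medians were 0.30 and 0.20, and without DP_3 they were 0.43 and 0.38. The number of H/ACA genes past 0.5 log2 was 7 with all arrays, 4 without DP_2 and 9 without DP_3.

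Snora44, an H/ACA snoRNA of Snhg12, had the largest difference, with 10.38 on DP_1, 8.78 on DP_2 and 8.52 on DP_3, a linear ratio of 3.32 to the mean of the others. Snord47, a C/D snoRNA inside Gas5, had 9.14, 7.57 and 7.71, a ratio of 2.83. Among all 19938 genes these differences ranked 9 and 18. DP_1 stood apart in both cases by more than DP_2 and DP_3 differed from each other, which was 0.26 log2 for Snora44 and -0.14 for Snord47 (DP_2 minus DP_3). Snord15b, in Rps3, differed by 0.81 log2. Snord37, in the elongation factor gene Eef2, had 8.43, 7.71 and 7.52, and Snord73a, in Rps3a1, had 8.75, 8.06 and 7.81. Snora31, in Tpt1, had 8.98, 8.25 and 8.41. Snord104 had 10.83, 10.04 and 10.10. In each of these genes DP_1 was the highest array and the gap between DP_2 and DP_3 was smaller than the step up to DP_1. Snora41 differed by 0.885 log2, with 7.31, 6.65 and 6.20, but all 3 values lay below the background limit.

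At the other end, 9 members had a negative difference. Snora2b had 6.72, 6.95 and 7.05, all below background. Snord8, Snord42a, Snord57 and Snora74a differed by -0.205, -0.19, -0.17 and -0.16, each lowest on DP_1. Snora74a had 7.75, 7.89 and 7.93. Snora62, with 8.13, 8.29 and 8.05, had DP_1 between the other arrays. These departures were no larger than differences that DP_2 and DP_3 showed elsewhere among the members.

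**Figure D2:**
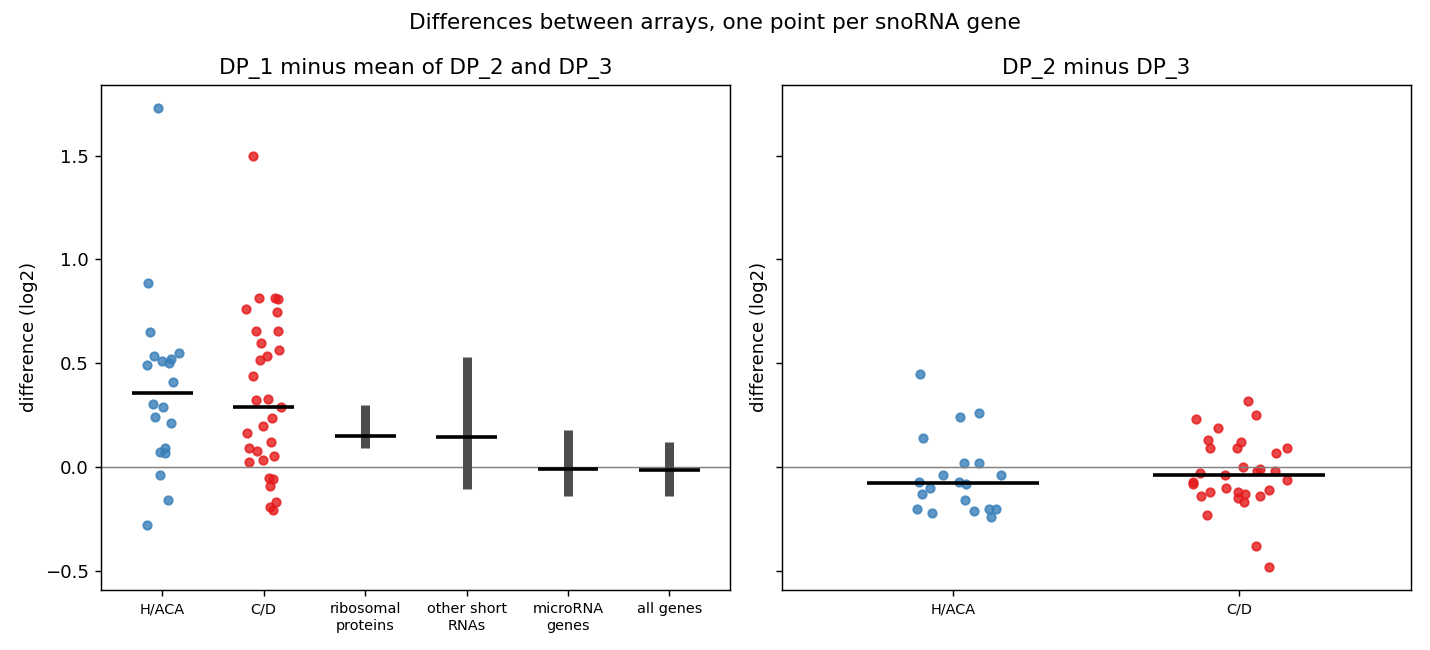
Left, the difference of DP_1 from the mean of DP_2 and DP_3 in log2, with a point for each snoRNA gene and, for 4 other gene groups, the range from lower to upper quartile as a grey bar; right, DP_2 minus DP_3 for the same snoRNA genes on the same scale. Black lines are medians, at 0.36 for H/ACA, 0.29 for C/D and -0.015 for all genes on the left, and at -0.075 and -0.04 on the right.

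The comparison of DP_2 with DP_3 played no part in choosing the members. Its median was -0.075 log2 for H/ACA genes and -0.04 for C/D genes, against 0.01 for all genes, and DP_2 was below DP_3 for 34 of 51 members, where 46.9% of all genes were. This was not particular to snoRNAs. DP_2 was also below DP_3 for 50 of 61 ribosomal protein genes and 17 of 22 containing genes with a probe set. The same held for 14 of 19 other short structural RNA genes. These arrays differed by more than 0.25 log2 for 5 members, Snord118, Snora41, Snord61, Snord58b and Snora44, or 9.8% of them, against 13.5% of all genes. Among genes above background on all arrays the share was lower, 3.01%, and among snoRNAs above background on all arrays it was 6.98%. The members were thus not steadier than other genes with a signal. Snord118 had the widest gap, with 8.17, 7.64 and 8.12. For this gene DP_2 was the low array and DP_1 and DP_3 were alike. Snord61, in Rbmx, had 8.93, 8.83 and 9.21, with DP_3 the high array. The median size of the gap, without its sign, was 0.12 log2 for the members, 0.10 for all genes and 0.07 for genes above background on all arrays.

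The snoRNAs needed for cutting the ribosomal RNA precursor did not move as a block. Snora73a and Snora73b are copies of U17, which acts in the maturation of 18S ribosomal RNA, and lie together in Snhg3. Snora73a had 10.12, 9.47 and 9.67, and Snora73b had 10.11, 9.54 and 9.61. Their sequences are closely related, so cross-hybridisation between their probes was not separated. Snord118, or U8, needed for 28S and 5.8S ribosomal RNA, was high on DP_1 and DP_3 as given above. Snord22, needed for 18S maturation, differed by 0.035 log2. Snord14e, a copy of U14, had 9.90, 9.52 and 9.63 and differed by 0.325. U3, the most abundant of these RNAs, is listed as Rnu3a and so is no member. It had 9.72, 8.57 and 8.99, highest on DP_1.

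Where 1 gene holds 2 measured snoRNAs, their values can be compared within that gene. Given here are 9 such genes, a set that was formed after the values were seen. The 2 differences lay within 0.015 log2 in Snhg3, 0.11 in Rpl13a, 0.155 in Ncl and 0.215 in Rps3a1. They were 1.24 log2 apart in Snhg12, where Snora16a differed by 0.49 and Snora44 by 1.73. They were 0.755 apart in Rpl23a, where Snord42a differed by -0.19 and Snord42b by 0.565, and 0.73 apart in Rps3, where Snord15a (10.73, 10.61 and 10.69) differed by 0.08 and Snord15b by 0.81. The remaining genes, 2410006H16Rik and Rack1, gave 0.325 and 0.315. The median distance within these 9 genes was 0.315 log2. The same distance taken on DP_2 minus DP_3 had a median of 0.11 and exceeded 0.5 in 0 of the 9. The largest was 0.46, in Snhg12. The DP_1 distances rest on the contrast by which the members were chosen, so the 2 medians are not an even comparison. Of the snoRNAs of Rpl13a, known for their part in the response to lipid overload, Snord33 and Snord35a differed by 0.055 and 0.165.

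**Figure D3:**
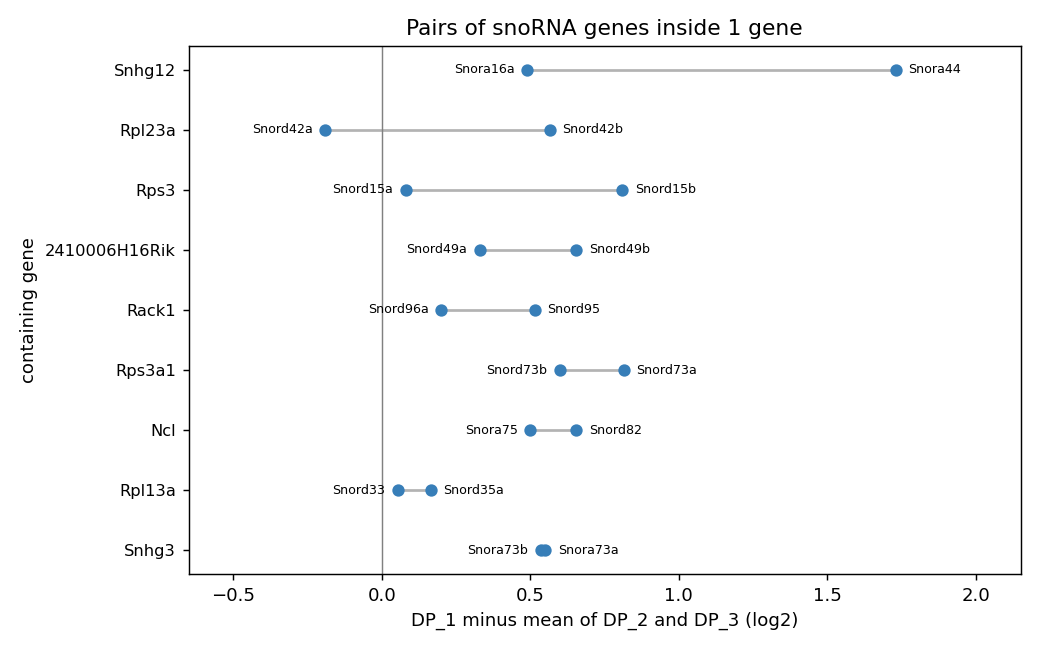
Difference of DP_1 from the mean of DP_2 and DP_3 in log2 for both snoRNA genes inside each of 9 containing genes, joined by a line and named beside the points. Snhg12, Rpl23a and Rps3 have distances of 1.24, 0.755 and 0.73 log2, and in Snhg3 the points nearly coincide.

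The containing genes were found by position and not by value, although they were read on the same arrays. A probe set of their own was measured for 22 of them, which gave 26 pairs of a snoRNA and its containing gene. The median difference was 0.37 log2 for the snoRNAs in these pairs and 0.145 for the containing genes. The snoRNA had the larger difference in 17 pairs and the containing gene in 9. The snoRNAs were picked for being higher on DP_1 and the containing genes were not, which favours the snoRNA in this comparison, so these counts are a description and no support for a difference. Past 0.5 log2 were 11 of the 26 snoRNAs and 1 containing gene, Eef1b2, an elongation factor subunit, with 11.15, 10.38 and 10.51. Of the 22 containing genes, 17 were highest on DP_1, against 38.6% of the genes above background on all arrays. This was not particular to containing genes: 10 of the 22 are ribosomal protein genes, and 49 of all 61 ribosomal protein genes were highest on DP_1. For Eef2 (12.80, 12.75 and 12.78), Tpt1 (13.26, 13.23 and 13.25), Rpl4 (12.87, 12.82 and 12.84) and Rps3 (12.31, 12.49 and 12.27) the difference was 0.035, 0.02, 0.04 and -0.07 log2. Their snoRNAs Snord37, Snora31, Snord16a and Snord15b were higher on DP_1 by 0.815, 0.65, 0.535 and 0.81. The reverse held for Snord57, lower on DP_1, in Nop56, whose 3 values were 11.11, 10.87 and 10.69. Snora62 differed by -0.04 and its containing gene Rpsa by 0.23, and Snora33 by 0.215 and Rps12 by 0.395. The median level was 11.75 for containing genes with a probe set and 8.87 for the 51 snoRNA genes. The part of signal level in these differences was not tested.

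Across the 26 pairs the differences of snoRNA and containing gene had a Pearson r of 0.26 and a Spearman rho of 0.16. The points share the 3 arrays and some share a containing gene. The pairs were kept to snoRNAs inside exactly 1 gene, which left out Gas5, Chd8 and Mcmdc2. The brightest Gas5 probe set had 12.36, 12.11 and 11.97, a difference of 0.32 against 1.50 for Snord47. Chd8 had a difference of 0.065 against -0.205 for Snord8, and Mcmdc2, below background on every array, one of -0.085 against 0.745 for Snord87. Over the 51 members the difference had a Spearman rho of 0.076 with the mean level and of 0.018 with the length of the gene, which ran from 45 to 205 bases. Members with a large difference were found among bright and dim, and among short and long, snoRNA genes.

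**Figure D4:**
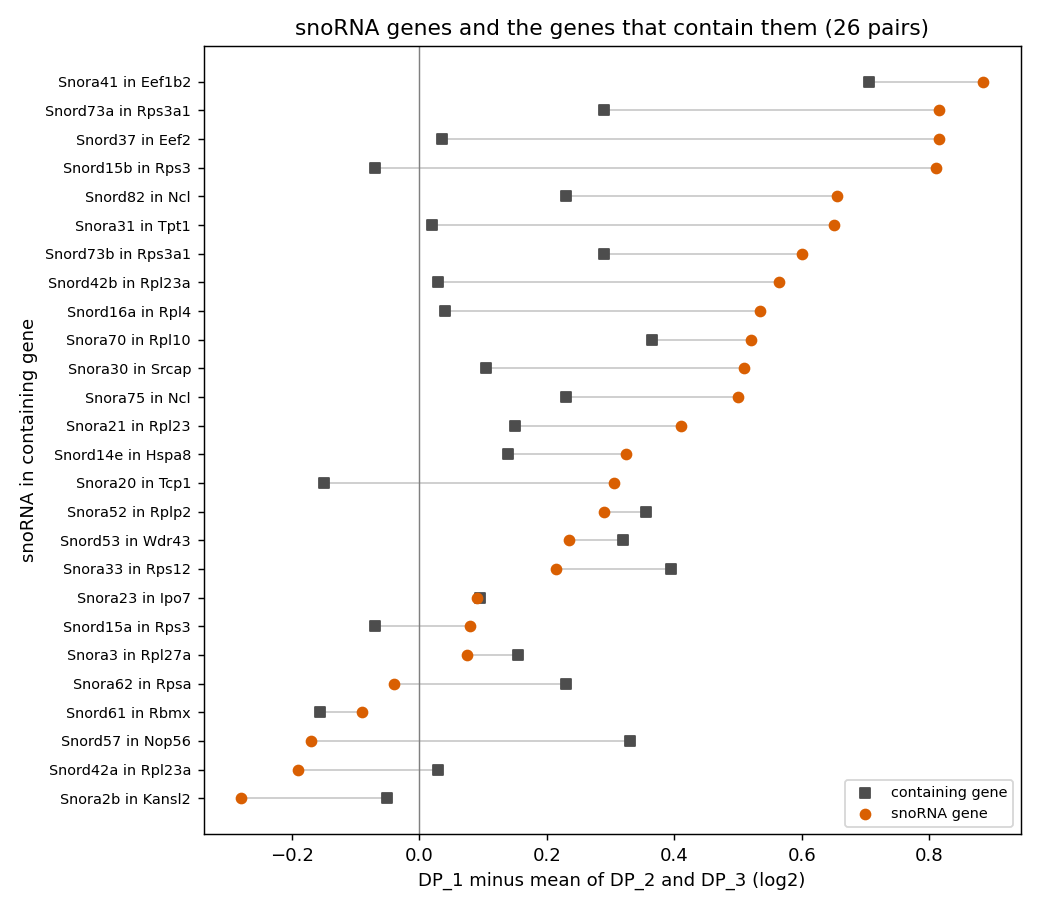
Difference of DP_1 from the mean of DP_2 and DP_3 in log2 for 26 snoRNA genes (circles) and the genes that contain them (squares), a line joining each pair, ordered by the snoRNA. The circle lies to the right of the square in 17 pairs, and 1 square, Eef1b2, lies beyond 0.5.

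The genes of all 8 core proteins that bind snoRNAs were above background on every array, against 41.3% of all genes. The 4 core proteins of C/D particles are the methyltransferase fibrillarin (Fbl), the scaffold proteins Nop56 and Nop58, and Snu13, which binds the RNA first. All 4 were highest on DP_1, with differences between 0.265 and 0.465, where 34.5% of all genes were highest on DP_1. Fbl had 8.82, 8.29 and 8.42, Nop58 had 10.42, 10.12 and 10.19, and Snu13 had 12.17, 11.76 and 11.74. Of the 4 core H/ACA proteins, 3 were highest on DP_1. The pseudouridine synthase dyskerin (Dkc1) had 9.24, 9.16 and 9.16, Nop10 had 9.67, 9.33 and 9.40, Nhp2 had 9.50, 9.19 and 9.17, and Gar1 had 8.96, 9.03 and 9.12, lowest on DP_1. No core protein gene passed 0.5 log2. Since 2.28% of all genes did, 8 genes are too few to read this as a trait of theirs.

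Of 14 assembly factors 11 were highest on DP_1, with a median difference of 0.15. Highest on DP_1 were 34.5% of all genes and 38.6% of those above background on all arrays. The early C/D factor Znhit3 had 8.71, 8.24 and 8.23. The H/ACA assembly factor Naf1 had 7.96, 7.34 and 7.71, and DP_2 was below the limit. Ruvbl2, an ATPase of the assembly complex, had 9.14, 9.42 and 9.48, lowest on DP_1. Of 24 genes for the release and trimming of snoRNAs, the debranching enzyme, exonucleases and the exosome among them, 11 were highest on DP_1 and the median difference was 0.05. Of 30 genes for ribosomal RNA synthesis and processing, 14 were highest on DP_1 with a median of 0.03. No gene of these 3 lists passed 0.5 log2 in either direction. Over all genes 2.28% were higher on DP_1 by more than that and 1.31% lower, so lists of this size would hold few. The 61 ribosomal protein genes had a median of 0.15, with 49 of them highest on DP_1 and 3 past 0.5.

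Other short RNA genes are set beside the snoRNAs as a description, with no test of a difference. The median difference was -0.01 log2 over 297 microRNA genes, of which 112 were highest on DP_1 and 10 past 0.5. Of the microRNA genes 237 lay below background on every array, as did 11111 of all 19938 genes. Among 19 other short structural RNA genes the median difference was 0.145, with 9 highest on DP_1 and 5 past 0.5. Over all genes 34.5% were highest on DP_1 and 2.28% past 0.5, near the 37.7% and 3.37% of the microRNA genes. Rpph1, the RNA of ribonuclease P, had 14.42, 14.44 and 14.44, and Rn7sk, which holds back a transcription elongation factor, had 14.40, 14.37 and 14.40, both nearly equal on the 3 arrays and close to the highest value measured. Rmrp, the RNA of the related ribonuclease MRP, had 12.97, 12.65 and 13.00. Scarna13 (9.59, 9.23 and 9.21) and Scarna8 (7.85, 7.06 and 7.25), guides of the Cajal body, were highest on DP_1, and Scarna17 (10.58, 10.69 and 10.86) was lowest there. Rnu12, of the minor spliceosome, had 9.46, 8.62 and 8.85.

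DP_1 also differed from the other arrays in genes outside the snoRNA and ribosome lists, where 34.5% of all genes were highest on DP_1 and 2.28% passed 0.5 log2. Of 25 immediate-early genes, transcribed within minutes of a stimulus, 22 were highest on DP_1 and 17 passed 0.5 log2. Their medians were 9.53, 8.28 and 8.33 on DP_1, DP_2 and DP_3, and Fos had 9.39, 7.86 and 8.27 and Jun 11.01, 9.65 and 9.56. Xist, expressed from the inactive X chromosome of female cells, was far above background on DP_1 alone and the Y-linked Eif2s3y on DP_2 and DP_3 alone. These genes, too, set DP_1 against both other arrays. All 8 DP markers were above background on every array, and 7 of them were lowest on DP_1, with Rag1 and Rag2 in the list. Of 8 myeloid and dendritic markers 6 were highest on DP_1 and 1 was above background on all arrays, with medians of 6.715, 6.50 and 6.59. The class II gene Cd74 had 8.83, 7.27 and 8.05, with DP_3 between the other arrays. Of the NK markers 3 of 4 were highest on DP_1, of the B cell markers 2 of 4, of the stromal and endothelial markers 2 of 5, and of 6 epithelial and 2 erythroid markers none. The part of sex, stimulation or other cell types in the snoRNA values was not tested, and with 1 array per cohort they cannot be told apart. In bulk RNA, more cells of a type and more RNA per cell likewise cannot be told apart.

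In 5 members 2 probe sets were measured, and they gave like differences. Both probe sets of Snora30 carried identical values on each array, as did those of Snord118, so they may share probes and are no independent readings. Those of Snora21 differed by 0.41 and 0.47 log2 between DP_1 and the other arrays, those of Snora3 by 0.075 and 0.10, and those of Snord58b, all below background, by -0.05 each.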

How the data were processed

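The authors deposited 1 log2 expression value for each probe set and array, per the series' value table, rounded to 2 decimals. The log2 scale is inferred: outside the control block the lowest value is 1.98 and the highest 14.94. Per the submitters' processing notes affy, an R package, was used, with no version. How background was corrected, values normalized and probes summarized, and for which genome build, is not given in the sources used here. Deposited columns share nearly the same distribution, so a difference affecting all genes alike would not show.

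Of 35556 probe sets, the 6617 numbered below the first with a gene symbol were taken as controls. Of the other 28939, 21789 have 1 symbol, 1621 several and 5529 none in the platform's annotation. Gene identifiers of 19855 of 19938 genes matched a RefSeq table of GRCm38.p6, used for names, biotypes, lengths and which genes contain the members (strand is not in that table, so a host may lie on either), and 0 symbols changed. The background limit came from 98 probe sets (96 genes) listed as specific to other organs, so about 5% of such genes exceed it by construction. Of the 96 genes, 4 were above it on every array, Mbp among them, so the list may hold genes that thymocytes express.

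No test was run: there is 1 group, and the members were chosen on the contrast described. The members and the lists were chosen with earlier results of these data known. Named were, by class, the 5 brightest members, the 5 with the largest and 3 with the smallest DP_1 difference, the 5 with the largest gap between DP_2 and DP_3, members needed for precursor cutting, members with several probe sets, core binding proteins and hosts of those named; imprinted brain snoRNAs in the rule have no probe set of their own. Others were named after their values were seen. Of the genes holding 2 members, 1 is not reported here. The number of arrays limits the precision. The scripts were checked on data with known shifts, with Python 3.11.15, numpy 2.4.6 and pandas 2.3.3.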

Additional observations from a re-analysis of the deposited data

How the results depend on the processing

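Of 108 values recomputed for 15 results, 96 moved by less than a set spread (or, for counts, by less than 1.5 times), 11 moved by more and 1 changed sign. The spread was that between array medians, for DP_1 differences between those of DP_2 and DP_3 only. For DP_2 minus DP_3 it was instead a standard error over genes, which are no replicates. Quantile normalization, median centring, the mean of a gene's probe sets and the dimmest probe set changed no result beyond that spread. Keeping only members with a mean above the background limit raised the median level to 9.23 for H/ACA and 9.13 for C/D genes. The H/ACA minus C/D median level was then 0.10, with the sign turned, against -0.365, because leaving out the dim members raised the H/ACA median more. The median DP_1 difference of H/ACA genes was 0.41 under that filter. Without Snora44 and Snord47, an alternative added after the data were seen, it was 0.305. With a threshold of 1 log2, 1 H/ACA and 1 C/D gene were higher on DP_1, and with 0.25 log2 the H/ACA count was 12, against 7 at 0.5. Leaving out 1 array at a time, the H/ACA minus C/D median level ran from -0.605 to -0.26, the median DP_1 difference of H/ACA genes from 0.30 to 0.43 and their count past 0.5 log2 from 4 to 9. No DP_1 difference exists without DP_1. Alternatives that leave out imprinted brain snoRNAs, or keep only non-coding hosts, were not run, since no such member, and no such host in the pairs, has a probe set of its own. No paired analysis was possible because there is 1 group. Values near the background limit are limited by signal over background.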
